A study of Homo sapiens with 6 samples.

Results

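The BCL2 family decides whether the outer mitochondrial membrane of a cell stays intact, and 10 of its genes were followed here in monocytic leukaemia cells that overexpress the soluble pattern recognition protein PTX4. The genes were BCL2, BCL2L1, MCL1, BCL2A1, BAX, BAK1, BAD, BID, BCL2L11 and BBC3, found by their Ensembl identifiers among 78657 genes. All 10 were listed, and 9 of them were among the 17627 genes that passed a filter on low counts and could be tested. BCL2A1 did not pass it. The cells were THP-1, a human line from an acute monocytic leukaemia. One group carried a stably transduced empty vector (EV) and the other a stably transduced PTX4 overexpression construct (PTX4-OE), with 3 biological replicates each, numbered 1 to 3 in both groups and given 1 batch. The promoter of the construct, and whether the transduced cells were a clone or a pool, are not given in the sources used here. RNA with poly(A) tails was sequenced, so the values are mRNA levels summed over all transcripts of a gene.

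Members of this family share short BCL2 homology (BH) segments and act by binding one another. Survival proteins (BCL2, BCL-XL from BCL2L1, MCL1 and BCL2A1) hold death proteins in a groove on their surface. BAX and BAK1 are the effectors, which assemble in the outer mitochondrial membrane and release cytochrome c, the signal that starts caspase activation. The BH3-only proteins (BAD, BID, BIM from BCL2L11 and PUMA from BBC3) report growth factor loss, receptor signals, stress or DNA damage, and they occupy the groove of the survival proteins or activate the effectors directly. Myeloid leukaemia cells are often dependent on BCL2 or MCL1, and drugs that mimic a BH3 segment act on that dependence.

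The BH3 core is the feature that most of these genes share, and the coding bases of that core are printed so that the members can be compared at that segment. A search of the canonical coding transcript of each gene (GENCODE release 44, GRCh38) looked for codons of a leucine, any 2 residues, then alanine, isoleucine, valine or methionine, then glycine, alanine or serine, then aspartate. The pattern was written to match known BH3 cores, so its matches are a description. It was found once in each of 9 of the 10 members and was present in 9.02% of the 19820 coding transcripts searched. In BCL2A1 the pattern was not matched. Each line gives 36 coding bases, 5′ to 3′ on the coding strand, with the leucine codon and the codons of the residue pair that ends in aspartate in capitals.
BCL2: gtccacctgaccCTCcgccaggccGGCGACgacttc
BCL2L1: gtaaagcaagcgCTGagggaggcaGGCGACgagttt
MCL1: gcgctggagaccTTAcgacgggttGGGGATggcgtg
BAX: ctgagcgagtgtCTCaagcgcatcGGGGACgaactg
BAK1: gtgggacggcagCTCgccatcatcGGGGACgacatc
BAD: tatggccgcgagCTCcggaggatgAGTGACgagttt
BID: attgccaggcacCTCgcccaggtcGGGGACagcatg
BCL2L11: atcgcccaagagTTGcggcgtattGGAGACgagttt
BBC3: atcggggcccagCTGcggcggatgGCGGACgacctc
Each stretch lies within a single coding exon. It is in exon 1 of MCL1 (chr1:150578871-150578906, minus strand) and in exon 2 of BCL2 (chr18:63318355-63318390, minus strand) and of BCL2L1 (chr20:31721928-31721963, minus strand). It is in exon 3 of BAX (chr19:48955775-48955810, plus strand), BAD (chr11:64271628-64271663, minus strand), BCL2L11 (chr2:111150091-111150126, plus strand) and BBC3 (chr19:47226585-47226620, minus strand). In BAK1 (chr6:33575393-33575428, minus strand) and BID (chr22:17739421-17739456, minus strand) it is in exon 4. BAD codes serine and BBC3 alanine before the aspartate, where the other 7 genes code glycine.

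Total expected counts ranged from 29670641 to 37718207 per library. PTX4 had 0, 3 and 4 counts in EV replicates 1, 2 and 3 and 24633, 14398 and 15782 in the PTX4-OE replicates, as the labels say. PTX4-OE replicate 1 stood apart with 2.79% of its counts on mitochondrial genes, against 4.75% to 5.91% elsewhere. All 8 monocytic markers had a mean of 1 TPM or more (a level scaled for gene length and to the same total in each library), with summed levels of 626 to 687 TPM in EV and 595 to 706 TPM in PTX4-OE. Of 20 markers of T cells, B cells, erythroid cells, fibroblasts and epithelium, 9 were at 0 in every library and 2 had a mean of 1 TPM or more (TRAC and CD79B, named after their values were seen). Of the 8 monocytic markers, 2 were called lower in PTX4-OE when libraries of the same number were compared as pairs, against 0.233% of all genes. These were MPO (log2 fold change -0.54) and CSF1R (-0.30; edgeR with a replicate block, adjusted p = 0.00813 and 0.0387). Without the block neither passed (edgeR, unadjusted p = 0.0396 and 0.271). The part of MPO and CSF1R in the values that follow was not tested.

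The members differed widely in level, and the order was led by MCL1. In deposited TPM averaged over the 6 libraries, MCL1 stood at 119, BID at 77.4, BAX at 73.8, BAK1 at 62.3 and BCL2 at 48.0. BAD followed at 25.4, BCL2L1 at 13.4, BCL2L11 at 11.7 and BBC3 at 7.98, while BCL2A1 was at 0.142. MCL1 was above BID in 6 of 6 libraries. BID exceeded BAX in 4 of 6 libraries, so these 2 neighbours overlapped. BAX was above BAK1 and BAK1 above BCL2 in 6 of 6 libraries, although the ranges of BAX (61.9 to 86.4 TPM) and BAK1 (56.0 to 69.0 TPM) overlapped. BCL2L1 exceeded BCL2L11 in 5 of 6 libraries and BCL2L11 exceeded BBC3 in 4 of 6. The order was the same in deposited FPKM. Within a library FPKM is TPM times a constant, so that sameness is no separate check.

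**Figure D1:**
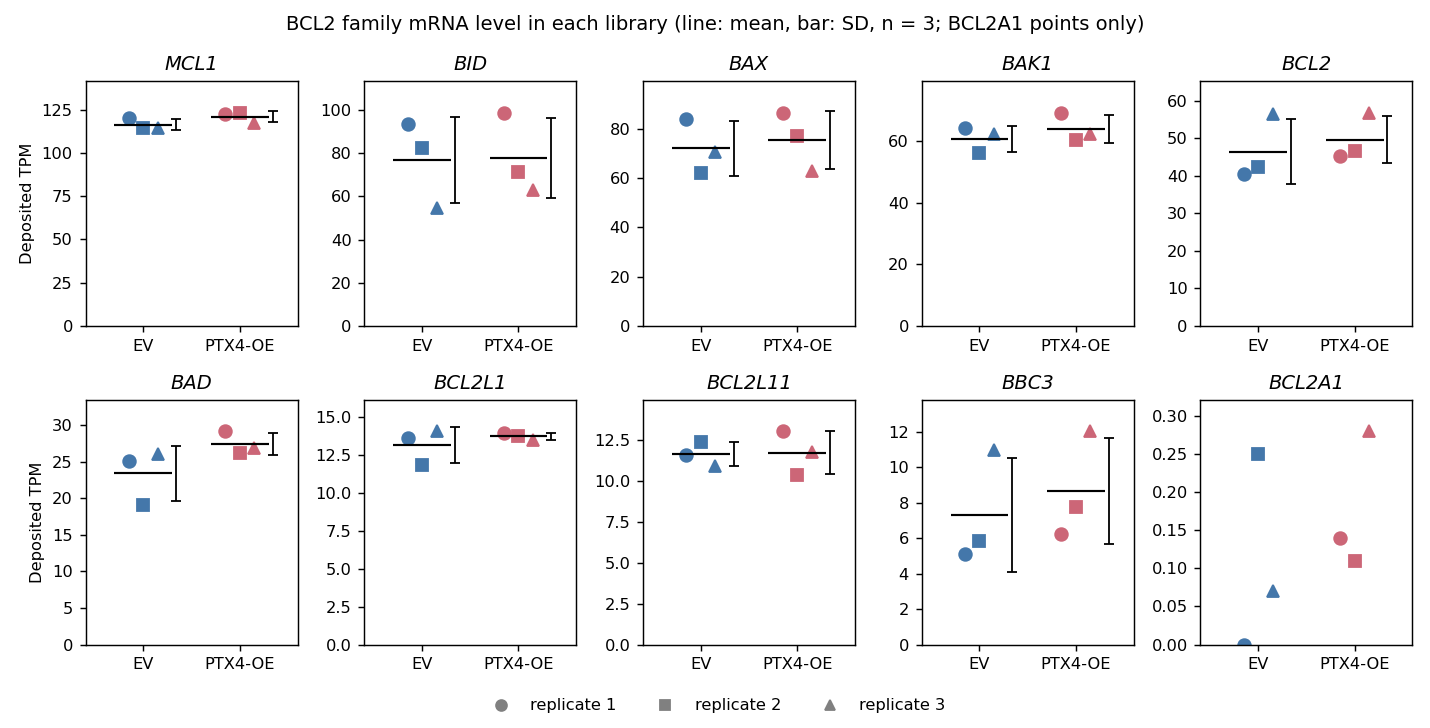
Deposited TPM (linear axes from 0) of the 10 BCL2 family genes, ordered by mean level. Each point is a library, its shape gives the replicate number, lines are group means and bars are SD (n = 3; BCL2A1 is shown as points only). EV and PTX4-OE libraries overlap in every panel but that of BAD, and the triangles of replicate 3 sit high for BCL2 and BBC3 and low for BID in both groups.

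No member of the family passed the test between PTX4-OE and EV, and most fitted differences were small. In the edgeR quasi-likelihood test on counts of all genes, with Benjamini-Hochberg adjustment, 0 of 9 tested members passed an adjusted p of 0.05. Of all genes tested, 0.00567% were called higher, which is PTX4 alone, and 0% were called lower. With the replicate number as a block, 0 of 9 members passed, against 0.0284% of all genes called higher and 0.233% called lower. At an unadjusted p under 0.05 the numbers were 0 of 9 without the block, where 0.743% of all genes passed, and 2 of 9 with it, where 8.78% passed. With no true differences, a share of about 0.05 of genes would be expected to pass at that level. The fit without the block passed far fewer, so its test was conservative here and its 0 of 9 says little. DESeq2, with and without the block, and limma-voom with the block also called 0 members. Over all genes, DESeq2 called 1 higher and 2 lower without the block and 6 and 32 with it. Limma-voom with the block called 14 higher and 52 lower. Without the block limma-voom called 0 of all genes, PTX4 included, so its 0 members carries no information. EdgeR called 0 members when PTX4-OE replicate 1, the library low in mitochondrial counts, was left out. Over all genes that fit called 1 higher and 0 lower. The members' log2 fold changes with the block ran from -0.053 to 0.25. Of these 8 were positive and 1 negative, beside 9156 positive and 8471 negative over all genes tested. Signs were not stable: under 19 alternative fits, 23 of 171 member values had the opposite sign. The member median was 0.036 with the block and 0.039 without, beside 0.0050 and 0.0080 over all genes tested.

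A miss of the threshold does not show that a gene was the same in both groups, and the confidence intervals give the sizes that remained possible. With the block, changes of 1.5-fold or more up or down lay outside the 95% interval for 9 of 9 members. Without the block this held for 8 of 9, and the exception was BBC3, whose interval reached a 2-fold rise. These intervals rest on variances that edgeR shares across genes.

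**Figure D2:**
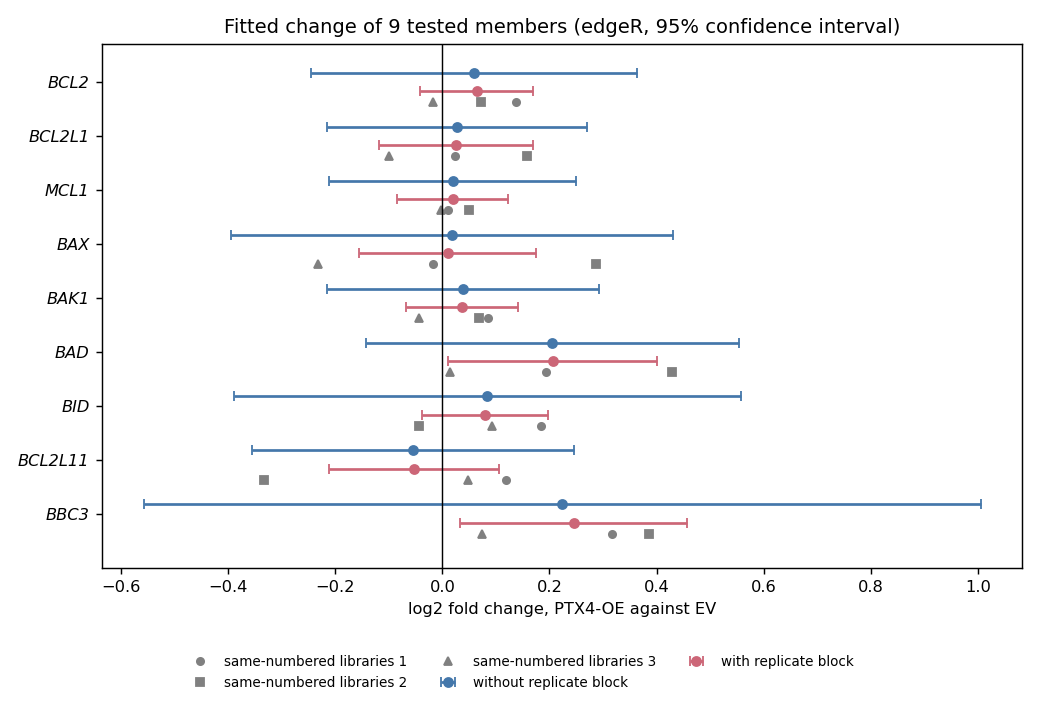
Log2 fold change of PTX4-OE against EV for the 9 tested members, with 95% confidence intervals from edgeR without the replicate block (blue) and with it (red). Grey symbols are the log2 CPM differences of the same-numbered libraries. All blue intervals span 0, and the red intervals of BAD and BBC3 start just above it.

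Among the survival genes, MCL1 (ENSG00000143384.14, chr1:150560895-150579738, minus strand, protein coding) was nearly level across libraries. MCL1 protein, which is turned over within hours, was not measured here. The mRNA level was 120.0, 114.4 and 114.6 TPM in EV replicates 1, 2 and 3 and 122.8, 123.1 and 117.1 TPM in the PTX4-OE replicates. The PTX4-OE libraries reached slightly higher, and the groups overlapped. The mean was 116 ± 3.20 TPM in EV and 121 ± 3.39 TPM in PTX4-OE (SD, n = 3 each). In CPM with TMM scaling (counts scaled for library size and composition) MCL1 was at 340, 327 and 305 in EV and at 343, 339 and 305 in PTX4-OE. The size of the rise depended on the scale, with a log2 fold change of 0.056 in limma on log2(TPM + 1) without the block. The fitted log2 fold change was 0.019 (SE 0.0978, 95% interval -0.21 to 0.25, edgeR adjusted p = 1), and with the block the interval was -0.085 to 0.12 (adjusted p = 0.952).

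BCL2 (ENSG00000171791.14, chr18:63123346-63320128, minus strand, protein coding), the founding survival gene and the target of venetoclax, was at 40.5, 42.4 and 56.5 TPM in EV and at 45.3, 46.6 and 56.7 TPM in PTX4-OE. The replicate 3 library was the highest in both groups. The difference from replicate 3 to the others exceeded the difference between EV and PTX4-OE. BCL2 had a log2 fold change of 0.059 (SE 0.129, interval -0.25 to 0.36, edgeR adjusted p = 1) without the block and 0.064 (SE 0.0498, adjusted p = 0.779) with it.

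BCL2L1 (ENSG00000171552.14, chr20:31664452-31723989, minus strand, protein coding) encodes BCL-XL, and by another splice site a short form that promotes death. The counts do not separate the 2 forms. It stood at 13.6, 11.8 and 14.0 TPM in EV and at 13.9, 13.7 and 13.5 TPM in PTX4-OE, so EV held both the lowest and the highest library. For BCL2L1 the fitted value was 0.027 (SE 0.103, interval -0.22 to 0.27, edgeR adjusted p = 1). In edgeR with the block it was 0.025 (SE 0.0673, interval -0.118 to 0.169, adjusted p = 0.954).

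BCL2A1 (ENSG00000140379.9, chr15:79960892-79971196, minus strand, protein coding), a survival gene that NF-kB induces in stimulated myeloid cells, was close to absent in both groups. It had 0, 3 and 1 counts in EV and 2, 1 and 4 counts in PTX4-OE, which is at most 0.28 TPM. Summed over 3 libraries these were 4 counts in EV and 7 in PTX4-OE. A difference between the groups was not detectable at this depth, and no fold is given. MCL1 made up 61.9% to 68.9% of the summed TPM of the 4 survival genes in every library, and nearly all the rest was BCL2 and BCL2L1.

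Both effector genes were well expressed and overlapped between the groups. BAX (ENSG00000087088.21, chr19:48954815-48961798, plus strand, protein coding), a cytosolic protein that moves to mitochondria on activation, was at 83.8, 61.9 and 70.6 TPM in EV and at 86.4, 77.1 and 63.0 TPM in PTX4-OE. Pairs of the same number disagreed in direction. The log2 differences were -0.018, 0.29 and -0.23 in pairs 1, 2 and 3, and the fitted value was 0.018 (SE 0.175, interval -0.40 to 0.43, edgeR adjusted p = 1). In edgeR with the block it was 0.010 (SE 0.0776, interval -0.156 to 0.175, adjusted p = 0.983).

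BAK1 (ENSG00000030110.14, chr6:33572547-33580293, minus strand, protein coding), which is resident in the outer mitochondrial membrane, was at 64.0, 56.0 and 62.2 TPM in EV and at 69.0, 60.2 and 62.2 TPM in PTX4-OE. The highest library was PTX4-OE replicate 1 and the lowest EV replicate 2. BAK1 had a log2 fold change of 0.039 (SE 0.108, interval -0.22 to 0.29, edgeR adjusted p = 1). In edgeR with the block it was 0.036 (SE 0.0492, interval -0.068 to 0.141, adjusted p = 0.891).

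BAD and BBC3, both BH3-only genes, had the largest fitted values of the 9 tested members, both positive, and neither passed. BAD (ENSG00000002330.14, chr11:64269830-64284704, minus strand, protein coding) encodes a sensor that growth factor signalling keeps phosphorylated and bound to 14-3-3 proteins. It was at 25.1, 19.1 and 26.0 TPM in EV and at 29.2, 26.3 and 26.9 TPM in PTX4-OE. All PTX4-OE libraries were above all EV libraries in TPM, as was the case for 2.94% of all genes tested. In CPM with TMM scaling (counts scaled for library size and composition) the groups overlapped, with 13.1, 9.88 and 12.7 in EV and 14.9, 13.3 and 12.8 in PTX4-OE. On that scale the groups of 0 of 9 members were apart, against 4.11% of all genes. BAD had a log2 fold change of 0.21 (SE 0.147, interval -0.14 to 0.55, edgeR adjusted p = 1). With the block it was 0.21 (SE 0.0914, interval 0.011 to 0.40, unadjusted p = 0.0396, adjusted p = 0.537), and the 3 pairs were at 0.19, 0.43 and 0.015. The value rested in part on EV replicate 2, the lowest library: leaving out that library gave 0.088, and leaving out both replicate 2 libraries gave 0.11 with the block. GPR137, which overlaps BAD on the opposite strand, was at 0.0080 (SE 0.0906) with the block. No source used here states whether counting used strand, so some reads of either gene may have been credited to the other.

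BBC3 (ENSG00000105327.18, chr19:47220822-47232766, minus strand, protein coding) encodes PUMA, which p53 and stress-responsive factors induce and which binds every survival protein of the family. Its level was 5.08, 5.86 and 10.96 TPM in EV and 6.23, 7.76 and 12.01 TPM in PTX4-OE. PTX4-OE was higher within each pair, but EV replicate 3 was above PTX4-OE replicates 1 and 2. The log2 fold change was 0.22 (SE 0.331, interval -0.56 to 1.00, edgeR adjusted p = 1) without the block. With the block it was 0.25 (SE 0.0996, interval 0.033 to 0.46, unadjusted p = 0.0261, adjusted p = 0.488), and the pairs were at 0.32, 0.39 and 0.074. Without the block, the value was -0.045 when PTX4-OE replicate 3 was left out and 0.62 when EV replicate 3 was. BAD and BBC3 were the 2 of 9 members that were higher in all 3 pairs, as were 16.4% of all genes tested. No member was lower in all 3 pairs, against 14.1% of all genes.

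BID (ENSG00000015475.19, chr22:17734138-17774770, minus strand, protein coding), which caspase-8 cleaves to carry death receptor signals to mitochondria, was at 93.4, 82.7 and 54.9 TPM in EV and at 98.7, 71.5 and 63.1 TPM in PTX4-OE. The replicate 1 libraries were high and the replicate 3 libraries low in both groups. In CPM with TMM scaling BID was at 66.6, 60.5 and 45.8 in EV and at 75.7, 58.8 and 48.9 in PTX4-OE. TPM per count of BID, relative to that of MCL1, varied between libraries, so TPM differences of BID are not of counts alone. BID was fitted at 0.084 (SE 0.200, interval -0.39 to 0.56, edgeR adjusted p = 1), and with the block 0.080 (SE 0.0556, adjusted p = 0.744). Cleavage of BID is not visible in mRNA.

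BCL2L11 (ENSG00000153094.26, chr2:111119378-111168444, plus strand, protein coding) encodes BIM, an activator that FOXO3 induces when growth factors are withdrawn. It was the 1 member with a negative fitted value. It was at 11.6, 12.4 and 10.9 TPM in EV and at 13.0, 10.4 and 11.8 TPM in PTX4-OE, so the EV range lay within that of PTX4-OE. The log2 fold change was -0.055 (SE 0.127, interval -0.36 to 0.25, edgeR adjusted p = 1), and the pairs were at 0.12, -0.33 and 0.047. In edgeR with the block it was -0.053 (SE 0.0747, interval -0.212 to 0.106, adjusted p = 0.899). With both replicate 2 libraries left out, the blocked value was 0.084. Its expected counts were fractional in all 6 libraries, and MIR4435-2HG overlaps it on the opposite strand, with 544 to 749 counts per library and a log2 fold change of 0.0020 with the block.

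The share of survival and death transcripts was compared as summed TPM, as a description. The 4 survival genes made up 38.1%, 41.5% and 44.02% of the family's TPM in EV replicates 1, 2 and 3 and 37.59%, 42.02% and 43.99% in the PTX4-OE replicates. Libraries with the same number were within 0.52 percentage points of each other, and the numbers lay further apart than the groups. BAX and BAK1 together held 29.0% to 32.3% in EV and 29.3% to 32.1% in PTX4-OE. The 4 BH3-only genes held 29.6%, 29.5% and 24.4% in EV and 30.3%, 26.5% and 26.7% in PTX4-OE. The ratio of BCL2 to BAX was 0.484, 0.685 and 0.800 in EV and 0.525, 0.604 and 0.901 in PTX4-OE, so replicate 3 had the highest ratio and replicate 1 the lowest in both groups. MCL1 exceeded BCL2 by 2.03 to 2.96 times in EV and by 2.06 to 2.71 times in PTX4-OE.

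For 6 of the 9 tested members most of the variation among the 6 libraries lay between replicate numbers. The sum of squares of log2 CPM was divided between replicate number (2 of 5 degrees of freedom), group (1) and the rest (2), as a description. By degrees of freedom alone, number would take 40% and group 20%. Replicate number took 95.8% for MCL1, 94.0% for BID, 88.9% for BCL2, 88.3% for BBC3 and 87.2% for BAK1. For BAX it took 73.2%, and for BCL2L1, BAD and BCL2L11 it took 45.2%, 42.0% and 37.4%, which is near the share by degrees of freedom. The group took 35.4% for BAD and 0.086% to 9.25% for the other 8 members. The member median was 87.2% for number and 3.70% for group, beside 79.8% and 4.38% over all genes tested. Per degree of freedom, number took more than group in 8 of 9 members and in 82.6% of all genes. The exception was BAD, with 21% per degree of freedom for number.

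The members did not move together between numbers. BBC3 was higher in replicate 3 than in replicate 1 by 1.07 in EV and by 0.83 in PTX4-OE (log2 CPM), and BCL2 by 0.37 and 0.21. BID was lower by 0.54 and 0.63 (differences -0.54 and -0.63), BAX was at -0.32 and -0.53, and MCL1 at -0.16 and -0.17. The stress sensor BBC3 and the survival gene BCL2 were both high in the replicate 3 libraries, in which BID was low. The labels do not say what a replicate number shares. The 5 tested genes whose centred log2 CPM was nearest to that of BBC3 over the 6 libraries were DNASE1, ANKRD34A, ENSG00000286288, ADAP2 and HRK. Their root mean square differences were 0.0501, 0.0634, 0.0637, 0.0690 and 0.0728, beside a median of 0.469 over all genes tested. The 5 genes were picked as the smallest of all these differences, so their place below the median was fixed by the choice. HRK is itself a BH3-only gene of the family, expressed here at a mean of 0.587 TPM.

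**Figure D3:**
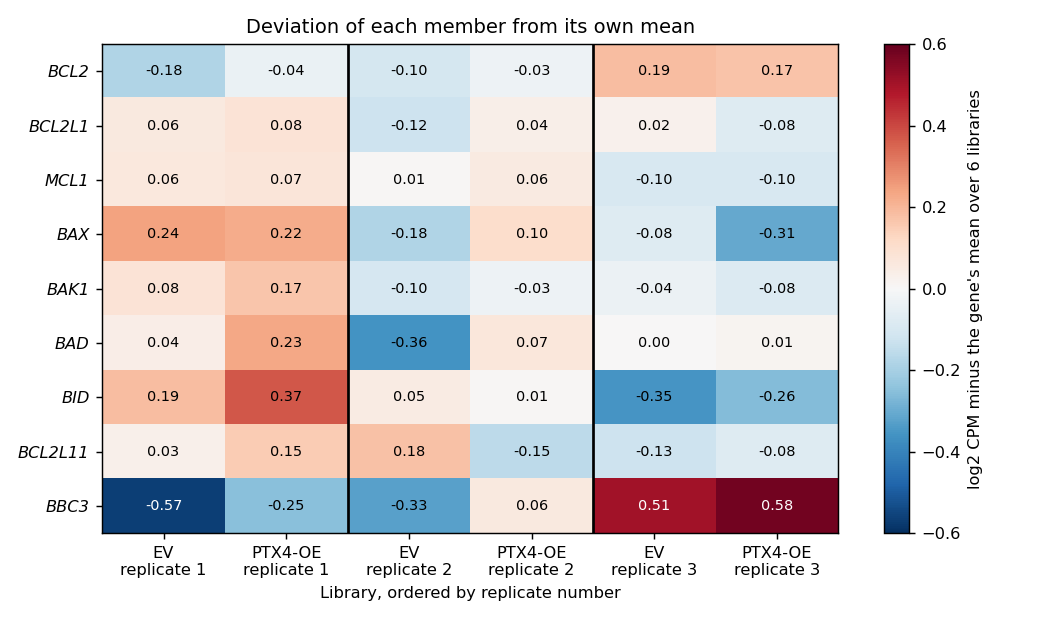
Log2 CPM of the 9 tested members minus each gene's mean over the 6 libraries, with columns ordered by replicate number and colour from blue (low) to red (high). BBC3 is at 0.51 and 0.58 in the replicate 3 libraries of EV and PTX4-OE and at -0.57 and -0.25 in the replicate 1 libraries, while BID shows the opposite signs.

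Around the family, 99 genes in 7 lists covered the rest of the cell death machinery, and 0 of the 92 that were tested passed in either direction, with or without the block (edgeR). At an unadjusted p under 0.05 with the block, 5 were higher and 3 lower, beside 4.36% and 4.42% of all genes. The median log2 fold change of the 92 was 0.016 with the block. Medians and gene values of these lists are from edgeR with the block, unless the fit without it is named. Among 11 other tested BCL2 family genes the median was 0.021, with 7 positive and 4 negative values. BNIP3, a mitophagy receptor that hypoxia induces, was at 0.24 (SE 0.0842, adjusted p = 0.375 in edgeR with the block). Without the block its SE was 0.15 (unadjusted p = 0.135 in edgeR). Its level was 41.8, 40.8 and 42.1 TPM in EV and 46.6, 41.9 and 64.4 TPM in PTX4-OE, so PTX4-OE replicate 3 stood above the rest. Its relative BNIP3L was at 0.13 (SE 0.0553) and BCL2L12 at 0.10 (SE 0.0581). PMAIP1, which encodes NOXA, the partner of MCL1, was at -0.038. It had been listed among the other family genes and was picked out after its value was seen.

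**Figure D4:**
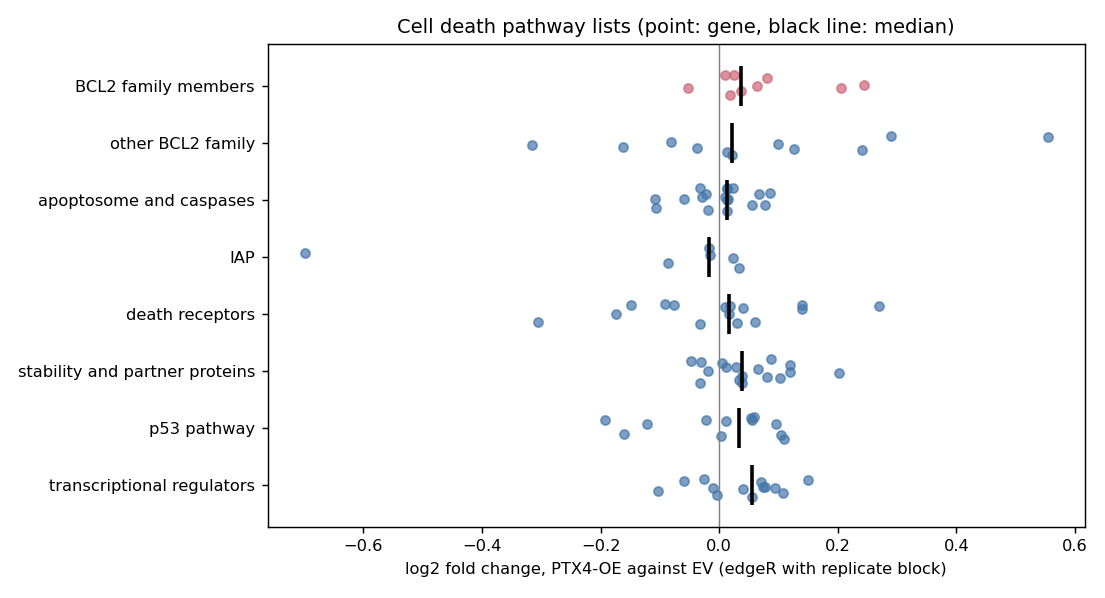
Log2 fold change of PTX4-OE against EV (edgeR with the replicate block) for each tested gene of the BCL2 family members and of 7 lists of cell death genes. Points are genes and black lines are list medians, which lie between -0.017 and 0.055. The point furthest to the left is BIRC3, which had 105 counts in EV and 73 in PTX4-OE summed over the libraries.

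Downstream of the mitochondria, 18 of 18 genes of the apoptosome and caspase list were tested, with a median of 0.013 and values from -0.11 to 0.086. CASP8, the initiator that cleaves BID, was at -0.11 (SE 0.0576), CASP10 at -0.11 (SE 0.0637), and DFFA, which restrains the apoptotic nuclease, at 0.086 (SE 0.0517). Of the inhibitors of apoptosis 6 of 7 were tested, with a median of -0.017. BIRC3, an NF-kB target, was at -0.70 (SE 0.329, adjusted p = 0.571 in edgeR with the block), at 0.34 TPM or less in every library. Without the block its SE was 0.308 (unadjusted p = 0.0596 in edgeR). NAIP was at -0.086 (SE 0.104) and BIRC2 at 0.033 (SE 0.0662).

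Upstream, the death receptor list had 15 of 17 genes tested and a median of 0.017. TNFRSF1B, the second receptor for TNF, was at -0.17 (SE 0.0515, unadjusted p = 0.00409, adjusted p = 0.260 in edgeR with the block), with -0.18, -0.17 and -0.18 in pairs 1, 2 and 3. Without the block its SE was 0.15 (unadjusted p = 0.285 in edgeR). TNFSF10, which encodes the death ligand TRAIL, was at -0.31 (SE 0.104, adjusted p = 0.353 in edgeR with the block) and its decoy receptor gene TNFRSF10D at 0.14 (SE 0.0694). Without the block TNFSF10 had an SE of 0.294 (unadjusted p = 0.327 in edgeR).

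Proteins that stabilise, degrade or bind the members gave 17 tested genes of 18, with a median of 0.038 and 13 positive values. HUWE1, a ubiquitin ligase of MCL1, was at 0.12 (SE 0.0513), DYNLL2, a dynein light chain that binds BMF, at 0.10 (SE 0.0528), and PIM1, a kinase that phosphorylates BAD, at 0.20 (SE 0.107). In the p53 list 12 of 13 genes were tested, with a median of 0.033. MDM4, an inhibitor of p53, was at -0.19 (SE 0.0530, unadjusted p = 0.00237, adjusted p = 0.212 in edgeR with the block), SESN2 at 0.10 (SE 0.0464) and ZMAT3 at -0.16 (SE 0.104). Without the block MDM4 had an SE of 0.218 (unadjusted p = 0.426 in edgeR). Of the transcriptional regulators 13 of 13 were tested, with a median of 0.055. DDIT3, a stress factor that can induce BBC3 and BCL2L11, was at 0.15 (SE 0.0628, adjusted p = 0.515 in edgeR with the block). Without the block its SE was 0.234 (unadjusted p = 0.549 in edgeR). Its level was 88.4, 99.1 and 149 TPM in EV and 92.3, 127 and 159 TPM in PTX4-OE, highest in replicate 3 of both groups. BBC3 was also highest there, while BCL2L11 was lower in replicate 3 than in replicate 1 (log2 CPM differences -0.16 in EV and -0.23 in PTX4-OE). A link of DDIT3 to either gene was not tested. E2F1 was at 0.094 (SE 0.0511) and NFKB1 at 0.11 (SE 0.0687).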

How the data were processed

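RNA of 6 libraries was measured, 3 per group. Per the submitters' processing notes, the authors used FastQC 0.11.5, STAR and featureCounts on GRCh38; settings, annotation and strand use are not stated in any source used here. Deposited by the authors were expected counts without normalization, of which 7.94% are not whole, and the same genes as deposited TPM (scaled for gene length and to 1000000 per library) and deposited FPKM. For BID the length behind the TPM differed between libraries. Among the 10 genes, BCL2L1 and BCL2L11 held all 8 fractional values of 60. Names came from Ensembl identifiers (61434 matched, 17223 unmatched); 29 pairs of pseudoautosomal genes were summed. Gene coordinates and coding sequences came from GENCODE release 44 on GRCh38, whose BCL2L11 entry has another version number than the files.

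Expected counts were rounded and tested across all genes with edgeR 4.0.16 in R 4.3.3 (filterByExpr, TMM, quasi-likelihood F test, Benjamini-Hochberg adjustment, threshold 0.05), without blocks. The standard error is the fold change divided by the root of F. DESeq2 1.42.0, limma-voom (limma 3.58.1) and limma on log2(TPM + 1) were alternatives. Python 3.11.15, pandas 2.3.3 and matplotlib 3.10.9 were used. EdgeR fits were also run on simulated counts with known changes. The simulation for the fit without blocks held no differences between replicate numbers, so it cannot show how that fit behaves on these libraries.

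Deviations from the group means, correlated between libraries of one number, gave 0.632 (number 1), 0.130 (number 2) and 0.699 (number 3), against -0.643 to 0.117 between libraries of different numbers. Number 2 is thus hardly told from a mismatch (0.117 for EV replicate 2 with PTX4-OE replicate 1). Each number exceeded the limit of 0.1, so the numbers were taken to pair the libraries, although the labels do not say what they share. The fit without blocks does not use this pairing, so differences between numbers stay in its error. P-values measure the spread between these replicates of 1 line. No library pair agreed within sampling noise (chi-square per degree of freedom of 6.54 or more). Depth ranged from 29670641 to 37718207 counts. The members and lists were chosen with earlier results of these data known. Named genes outside the members were those called in either fit and the 3 with the smallest p in each list with the block; markers of other cell types are given as counts of genes.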

Additional observations from a re-analysis of the deposited data

How the results depend on the processing

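The absence of calls among the members held under all 19 alternatives: 0 of 171 member values passed, and the smallest adjusted p was 0.335 (BAD, with the block and without the pair of replicate 3). The replicate block changed no member's call. Signs were less stable, with 23 of 171 values opposite in sign to the reported one. Leaving out 1 library, the log2 fold change ran from -0.021 to 0.18 for BCL2, -0.026 to 0.064 for BCL2L1, -0.022 to 0.065 for MCL1, -0.083 to 0.15 for BAX, -0.030 to 0.081 for BAK1, 0.088 to 0.27 for BAD, -0.089 to 0.21 for BID, -0.14 to 0.022 for BCL2L11 and -0.045 to 0.62 for BBC3. With the block and without the pair of replicate 2, BCL2L1 was at -0.037, BAX at -0.12 and BCL2L11 at 0.084. BCL2L11 was also at 0.0070 in each of the 3 limma fits on log2 TPM, with and without the block. Over all genes, 1 was called higher and 0 lower as reported. With the replicate block the calls were 5 higher and 41 lower in edgeR, 6 and 32 in DESeq2, 14 and 52 in limma-voom, and 2 higher on log2(TPM + 1). Without the block, limma-voom called 0 genes in either direction, PTX4 included, so its member values carry no information on the members. Also without the block, DESeq2 called 2 lower, the fit with no filter 1 lower, log2(TPM + 1) 3 higher, and log2(TPM + 0.1) 3 higher and 1 lower. With the block, 30 were higher and 59 lower without the pair of replicate 1, 9 and 23 without that of replicate 2, and 41 and 167 without that of replicate 3. The causes were not tested. Depth limits BCL2A1 most, with at most 4 counts per library, and counting error only is covered by such a limit.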
